A study of Mus musculus with 12 samples.

Results

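The Rab GTPases of CD11b dendritic cells were compared between mice given an adenovirus for active TGF-β1 and mice given the empty vector. Members were the rows of the count table whose symbol is Rab followed by a number and at most a letter and a digit. This gave 59 of the 24391 genes in the table, which excludes Rab-like genes and genes named after a Rab that they bind. After a low-count filter, 46 of the 59 were tested among 13221 genes. No count was found in any library for Rab33a, Rab3b, Rab40b and Rab9b, and 9 more (Rab15, Rab17, Rab25, Rab26, Rab27b, Rab37, Rab39b, Rab3c and Rab42) had counts too low to test. The highest mean of an untested Rab gene under either vector was 0.442 CPM (CPM: counts scaled to a common depth, on TMM-scaled library sizes, the unit of every level below unless a length is named).

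All mice were wild-type C57BL/6J, 8 to 12 weeks old, and were given an adenovirus that cannot replicate by the intratracheal route, either empty (AdCL) or with a porcine gene for active TGF-β1 (AdTGFb1). The series title places the cells in established pulmonary fibrosis. The titles put 3 libraries of each vector in each of 2 experiments. Experiment 1 held AdCL DC 7, 8 and 9 and AdTGFb1 DC 14, 52 and 54, and experiment 3 held AdCL DC 943, 944 and 949 and AdTGFb1 DC 954, 955 and 956. Organ, sorting gate, time after the vector and whether each library came from its own animal were not stated in the labels, so p-values measure the spread between these libraries. The vector is the model: the cytokine gene is carried by a virus and is not restricted to a cell type by anything the labels state.

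Rab proteins are small GTPases that switch between a GDP-bound form held in the cytosol and a GTP-bound form on membranes. Exchange factors load GTP, GTPase-activating proteins end the active state, and carrier proteins hold the inactive form. Each Rab marks particular membranes and recruits effectors such as motors, tethers and coat proteins. In dendritic cells they are known for steering internalized antigen, MHC molecules and cytokine-laden vesicles among endosomes, lysosomes and the cell surface.

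Totals ran from 10099912 to 15594546 counts per library, and 3 counts corresponded to 0.181 to 0.31 CPM. The markers Itgam, Itgax, Cd74 and H2-Ab1 were present, and 1 of the 11 CD11b dendritic cell markers (Sirpa) was higher under AdTGFb1 while 6 were lower. The lower ones, with log2 fold changes, were Cd209a (-1.97), Zbtb46 (-1.63), Irf4 (-1.36), Flt3 (-1.30), Cd74 (-0.43) and H2-Ab1 (-0.42). Other marker lists moved with the vector too. Marker counts here are edgeR calls over both experiments at an adjusted p under 0.05, where 6.78% of all genes were higher and 10.4% lower. The lists were chosen with earlier results of these data known. Of 11 mature dendritic cell markers 10 were lower, with a summed level of 5716 to 9542 CPM in AdCL and 2087 to 4402 CPM in AdTGFb1 libraries. Of 13 monocyte and macrophage markers 11 were higher, summing to 4746 to 12110 CPM in AdCL and 13190 to 22480 CPM in AdTGFb1 libraries. No marker of any list was at 0 in all libraries. By their sex-linked genes, AdCL DC 7, 8 and 9 and AdTGFb1 DC 14 came from males and the other 8 libraries from females. The markers of mature dendritic cells and of macrophages moved with the vector in both experiments, and sex moved with it in experiment 1. Sex was a term in an alternative run given below. No run held a term for the mature dendritic cell or macrophage markers, so their part in the Rab results was not tested. In bulk libraries, fewer cells of a type and less RNA per cell cannot be told apart.

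Rab genes took 0.294% to 0.364% of the counts of a library, and between 44 and 50 of the 59 had at least 1 count in a library. Rab8b, which serves transport from endosomes and the Golgi to the plasma membrane, was the most counted Rab gene in all 12 libraries. It held 25.6% to 37.8% of Rab counts in AdCL and 18.4% to 24.5% in AdTGFb1 libraries. The summed level of the family was 3661 ± 316 CPM (SD, n = 6; range 3233 to 3967) in AdCL and 3041 ± 152 CPM (n = 6; range 2770 to 3176) in AdTGFb1 libraries. Without Rab8b the sums were 2477 ± 81.2 and 2392 ± 129 CPM, and their ranges of 2384 to 2601 and 2228 to 2517 CPM overlapped.

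Per kilobase of exon, Rab8b led in AdCL libraries with 250 ± 54.9 CPM per kb (SD, n = 6) and still led in AdTGFb1 libraries with 137 CPM per kb. Rab7, the Rab of late endosomes and lysosomes, came second with 108 ± 6.8 and 103 CPM per kb under the respective vectors. Rab5c, an early endosome Rab, followed with 61.6 ± 10.6 and 70.1 CPM per kb. In AdCL libraries the ranges of these steps did not overlap, Rab8b against Rab7 and Rab7 against Rab5c. In AdTGFb1 libraries both did, with Rab8b at 114.4 to 153.5, Rab7 at 79.77 to 127.5 and Rab5c at 58.51 to 80.6 CPM per kb. Within every AdTGFb1 library, though, Rab8b was above Rab7 and Rab7 above Rab5c, so that overlap is spread between libraries. Among the neighbours that followed in AdCL libraries, ranges overlapped except between Rab8a and Rab32, so the ranges over 6 libraries do not resolve most of that order. For these neighbours the order within single libraries was not compared.

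**Figure D1:**
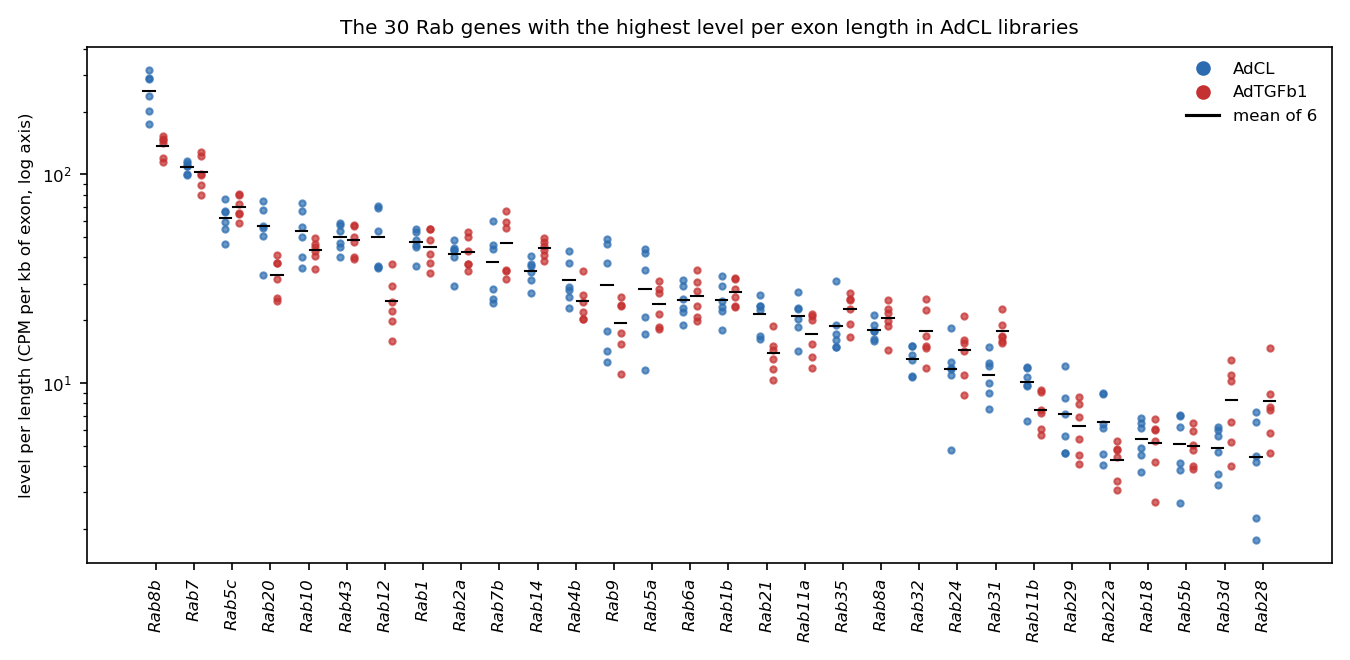
Level per kilobase of exon (log axis) of the 30 Rab genes highest in AdCL libraries, ordered by that level, with 1 point per library, colour for the vector and a line for the mean of 6. The mean of Rab8b is the highest under both vectors, at 250 CPM per kb in AdCL and 137 in AdTGFb1 libraries, and Rab7 follows at 108 and 103. The points of Rab7 and Rab8b overlap in AdTGFb1 libraries, although Rab8b is above Rab7 within each library.

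Under AdTGFb1, over both experiments, 5 Rab genes were lower (Rab8b, Rab12, Rab20, Rab21 and Rab22a) and 3 were higher (Rab31, Rab14 and Rab7b). These 8 of 46 are 17.4%, and 17.2% of all genes tested were called in the same comparison, 6.78% higher and 10.4% lower (edgeR quasi-likelihood test, Benjamini-Hochberg adjusted p under 0.05). The share of Rab genes called was thus that of all genes. The median log2 fold change of the 46 was -0.0548, and that of all genes was -0.00196. At an unadjusted p under 0.05 there were 13 Rab genes (28.3%; 29.4% of all genes). With a term for sex 4 of 46 were called (8.7%; 11.4% of all genes). With a term for markers of endothelial cells, lymphocytes, platelets, epithelium and fibroblasts 1 was called, Rab8b (2.17%; 4.21% of all genes). The score behind this term (mean centred log2 level) itself moved with the vector in experiment 1, at 0.545 to 1.74 in AdCL and -1.67 to -0.862 in AdTGFb1 libraries. In experiment 3 it overlapped, at -0.116 to 0.725 and -0.243 to 0.228. A call lost with this term, here and below, therefore cannot be assigned to other cells or to the vector. Without AdCL DC 7, or without AdTGFb1 DC 14, 52, 54 or 955, the number was 5 (10.9%), where 12.3% to 16.3% of all genes were called.

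**Figure D2:**
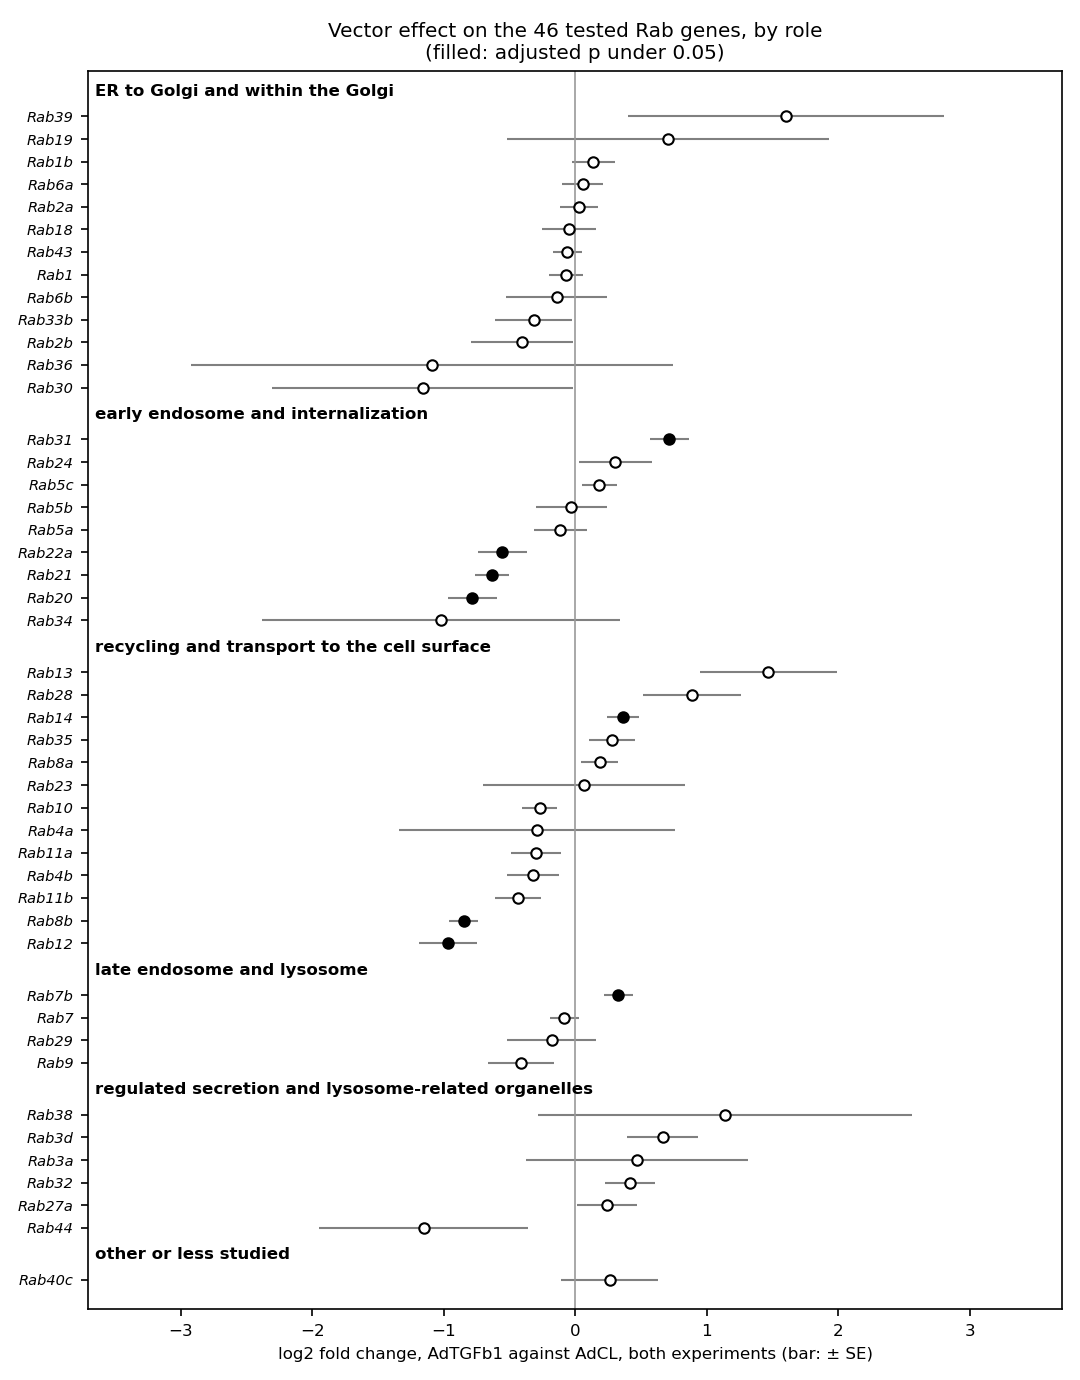
Log2 fold change (AdTGFb1 against AdCL, both experiments; bar: SE) of the 46 tested Rab genes, grouped by role, with filled points at an adjusted p under 0.05. The 8 filled points are spread over the early endosome, recycling and late endosome groups, from Rab12 at -0.97 to Rab31 at 0.72, and the 13 genes of the ER and Golgi group and the 6 of regulated secretion are all open. Over all genes tested 17.2% were called.

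Among the 13 tested Rab genes of recycling and transport to the cell surface, Rab8b and Rab12 fell, Rab14 rose and 10 were not called, with a median log2 fold change of -0.27. Over all genes 17.2% were called. The roles were assigned with earlier results of these data known and each holds few genes, so the counts by role, here and below, are descriptions. Rab8b stood at 1488, 1352 and 1366 CPM in AdCL DC 7, 8 and 9 and at 726.5, 669.8 and 688.2 CPM in AdTGFb1 DC 14, 52 and 54. The same order held in experiment 3, at 953.1, 1119 and 828.8 CPM in AdCL and at 568.7, 700 and 541.5 CPM in AdTGFb1 libraries. All 6 AdTGFb1 libraries lay below all 6 AdCL libraries, the only tested Rab gene with that order, which 4.46% of all genes showed. Its level fell from 1184.5 ± 259.9 to 649.1 ± 75.6 CPM (SD, n = 6 each), which is -0.85 ± 0.11 on the log2 scale (SE; edgeR adjusted p = 3.8e-05). The call was kept in every alternative run, between -0.995 and -0.657, with an adjusted p of at most 0.0221.

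Rab12, a Rab of endosomes linked to the delivery of transferrin receptor to lysosomes, stood at 143.2, 146.7 and 111.1 CPM in AdCL and at 41.13, 32.79 and 60.64 CPM in AdTGFb1 libraries of experiment 1. In experiment 3 the values were 75.49, 74.41 and 73.38 CPM in AdCL and 50.74, 77.38 and 46.02 CPM in AdTGFb1 libraries. Its groups were separate in experiment 1 and overlapped in experiment 3, where AdTGFb1 DC 955 was above the 3 AdCL libraries. Over both, 5 of 6 AdTGFb1 libraries were below all AdCL libraries, and the log2 fold change was -0.97 ± 0.22 (SE; adjusted p = 0.00492). The call was lost with the term for sex and with the term for other cells.

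Rab14, which moves early endosomal cargo to recycling compartments and the Golgi, stood at 83.12, 114.2 and 111.9 CPM in AdCL and 127, 133.8 and 152 CPM in AdTGFb1 libraries of experiment 1. Experiment 3 gave 125, 104.8 and 96.23 CPM in AdCL and 118.8, 146.3 and 139.6 CPM in AdTGFb1 libraries. All but AdTGFb1 DC 954 lay above every AdCL library. The rise was 0.36 ± 0.12 on the log2 scale (SE; adjusted p = 0.0455). It was still called after leaving out AdCL DC 8, 9 or 943 or AdTGFb1 DC 954, and not after leaving out any of the other 8 libraries, with an adjusted p of up to 0.117. It was also lost with the sex term (0.177), the term for other cells (0.32), no term for the experiment (0.0696) and no filter (0.056).

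Rab13, linked to surface delivery at cell junctions, was low in every library but did not overlap between vectors. It stood at 0.4135, 2.189 and 2.789 CPM in AdCL and 7.272, 4.511 and 6.463 CPM in AdTGFb1 libraries of experiment 1, and at 2.404, 2.361 and 3.083 against 6.909, 7.267 and 3.805 CPM in experiment 3. All 6 AdTGFb1 libraries were above all AdCL libraries, as for Rab31, and 1.86% of all genes showed that order. Its log2 fold change of 1.47 ± 0.52 (SE) missed the threshold with an adjusted p of 0.0588. DESeq2, which called 9 Rab genes (19.6%; 21.5% of all genes), called it at 0.0163, as did edgeR with library size only at 0.0354.

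The rest of this group was not called over both experiments. Rab8a, the close relative of Rab8b, stood at 81.8 ± 9.0 CPM in AdCL and 92.9 ± 16.6 CPM in AdTGFb1 libraries, a log2 difference of 0.19 ± 0.14 (SE; adjusted p = 0.412). Of the recycling endosome Rabs, Rab11a had -0.30 ± 0.19 (adjusted p = 0.327) and Rab11b -0.43 ± 0.17 (adjusted p = 0.0961). Rab10, which brings vesicles with membrane receptors to the surface, had -0.27 ± 0.14 (adjusted p = 0.194). Rab35, of fast endocytic recycling, had 0.28 ± 0.18 (adjusted p = 0.321).

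**Figure D3:**
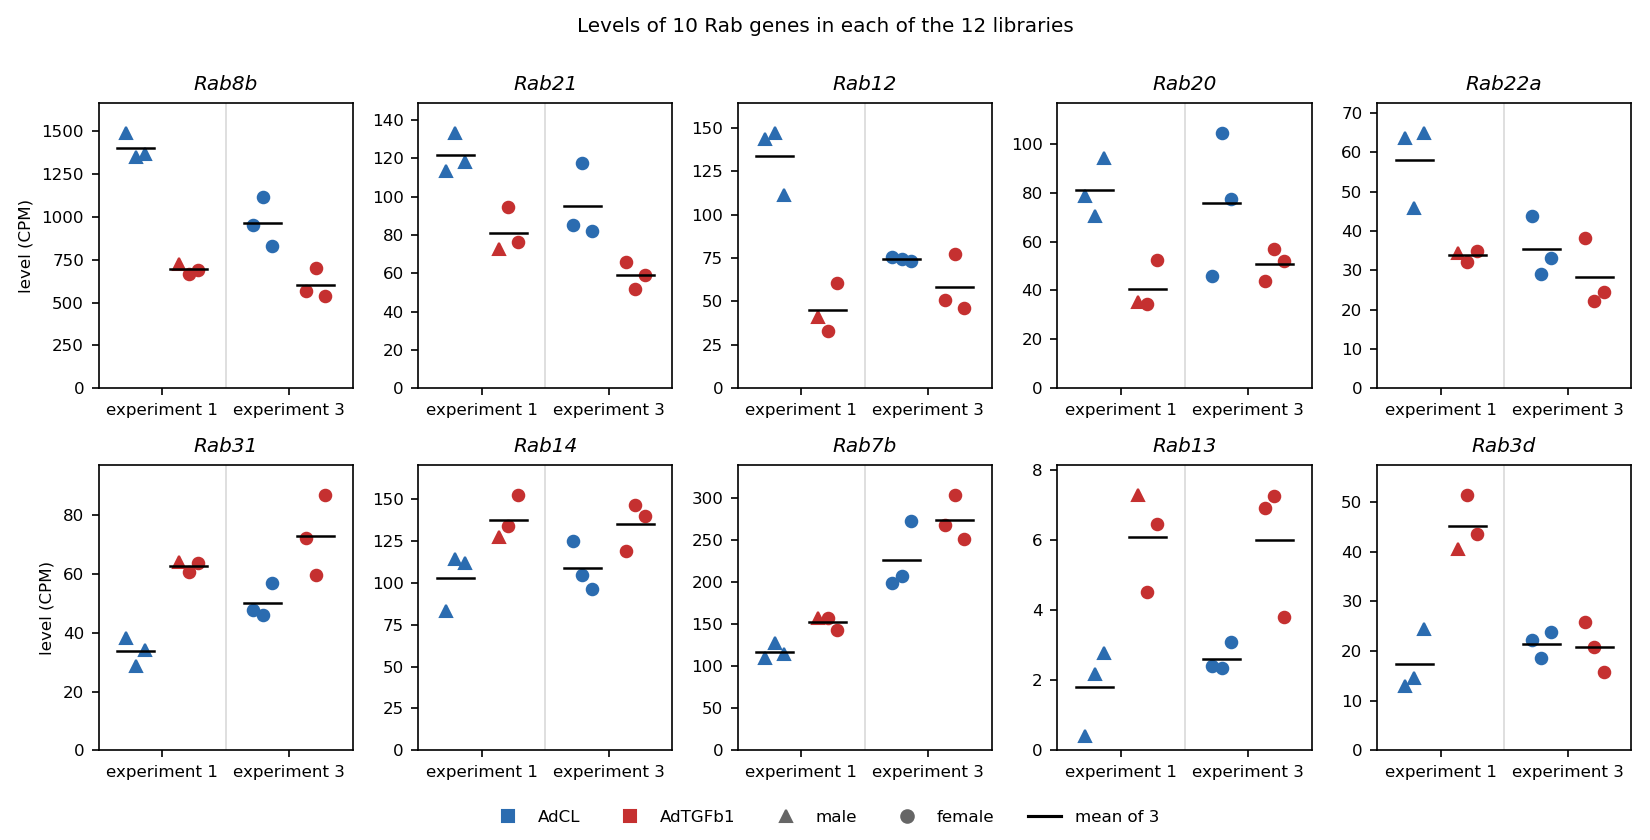
Level in CPM (each axis starts at 0) of 10 Rab genes in each of the 12 libraries, by vector within experiment 1 and experiment 3. For Rab8b the AdTGFb1 libraries lie at 541.5 to 726.5 CPM, below the 828.8 to 1488 CPM of AdCL libraries, while Rab12 is separate in experiment 1 and overlaps in experiment 3.

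The promoter sequence is shown for Rab8b, Rab21 and Rab31, which include the pair of Rab genes called in each experiment and the called gene with all AdTGFb1 libraries higher. Each line holds the 250 bases before the RefSeq start of the gene (GRCm38.p6, minus strand), 5′ to 3′. Rab8b lies at chr9:66919706-66919955, Rab21 at chr10:115315592-115315841 and Rab31 at chr17:65772753-65773002. Capitals mark matches on either strand to CCAAT (the box bound by the NF-Y factor), CACGTG (an E-box), GGGGCGGGG (a GC box) or CAGACA (a SMAD-binding sequence).
Rab8b: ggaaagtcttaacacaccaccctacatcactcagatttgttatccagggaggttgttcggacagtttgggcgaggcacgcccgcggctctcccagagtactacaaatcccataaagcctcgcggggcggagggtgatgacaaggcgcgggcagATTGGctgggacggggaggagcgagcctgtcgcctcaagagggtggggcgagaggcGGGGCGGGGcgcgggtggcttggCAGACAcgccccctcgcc
Rab21: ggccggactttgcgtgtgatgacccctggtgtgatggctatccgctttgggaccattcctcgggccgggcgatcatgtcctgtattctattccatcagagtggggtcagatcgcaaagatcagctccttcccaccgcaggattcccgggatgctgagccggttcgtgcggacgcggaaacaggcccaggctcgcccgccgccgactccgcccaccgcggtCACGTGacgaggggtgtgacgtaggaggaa
Rab31: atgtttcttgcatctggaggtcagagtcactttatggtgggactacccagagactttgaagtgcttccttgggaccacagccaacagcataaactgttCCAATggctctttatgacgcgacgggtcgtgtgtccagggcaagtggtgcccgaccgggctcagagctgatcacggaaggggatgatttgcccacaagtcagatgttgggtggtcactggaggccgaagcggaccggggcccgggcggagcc
The Rab8b window held 1 CCAAT on the strand opposite to the one printed, 1 GC box and 1 CAGACA, the Rab21 window 1 E-box, and the Rab31 window 1 CCAAT. Of all 32851 RefSeq windows of this length, 33.8% held CCAAT, 6.02% the E-box, 10.4% the GC box and 17.1% CAGACA. Of the 60 windows of the 48 Rab genes matched, 24 held CCAAT (40%), 5 the E-box (8.33%), 11 the GC box (18.3%) and 11 CAGACA (18.3%). The NF-kB consensus, also searched, was in 3.9% of all windows, in 2 Rab windows and in no called Rab gene. The Rab21 E-box is inside TCACGTGA, the core of the lysosomal CLEAR element, which 0.785% of all windows and 2 Rab windows held. Of the 7 called Rab genes with a window, CCAAT was in Rab22a, Rab31 and Rab8b, the GC box in Rab20 and Rab8b, CAGACA in Rab14 and Rab8b, and the E-box in Rab20 and Rab21. The motifs were chosen with the expression values known, and a match is a description of the letters only.

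Of 9 tested Rab genes of the early endosome and internalization, Rab21, Rab20 and Rab22a fell, Rab31 rose and 5 were not called (median log2 fold change -0.11), while 17.2% of all genes were called. Rab21, which carries integrins through early endosomes, stood at 113.5, 133.1 and 118.1 CPM in AdCL and 72.64, 94.87 and 76.53 CPM in AdTGFb1 libraries of experiment 1. Experiment 3 gave 85.11, 117.7 and 82.09 CPM in AdCL and 65.81, 52.07 and 59.01 CPM in AdTGFb1 libraries. Groups were separate within each experiment, and across both 5 of 6 AdTGFb1 libraries were below all AdCL libraries. The log2 fold change was -0.63 ± 0.13 (SE; adjusted p = 0.00234).

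Rab31, a relative of Rab22a that acts between the Golgi and endosomes, rose. Its levels were 38.15, 28.66 and 34.31 CPM in AdCL and 64.01, 60.72 and 63.6 CPM in AdTGFb1 libraries of experiment 1. In experiment 3 they were 47.7, 45.92 and 57.03 against 72.23, 59.73 and 86.73 CPM. Every AdTGFb1 library lay above every AdCL library, though AdTGFb1 DC 955 and AdCL DC 949 were close. The mean went from 42.0 ± 10.3 to 67.8 ± 10.3 CPM (SD, n = 6 each), a log2 rise of 0.72 ± 0.15 (SE; adjusted p = 0.00206).

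Rab20, a Rab of phagosomes and early endosomes, stood at 78.57, 70.25 and 94.1 CPM in AdCL and 35.45, 34.3 and 52.53 CPM in AdTGFb1 libraries of experiment 1. In experiment 3 it stood at 45.87, 104.2 and 77.2 CPM in AdCL and at 43.76, 56.94 and 52.12 CPM in AdTGFb1 libraries. The low value of AdCL DC 943 made the groups of experiment 3 overlap. The log2 fold change over both was -0.78 ± 0.19 (SE; adjusted p = 0.0071). In the GENCODE M21 annotation 25.6% of its exon bases lie under an opposite-strand gene, E230013L22Rik, and the strand setting of the counting is not given, so its count is uncertain. Rab20, Rab21 and Rab31 were called with any 1 library left out and were not called with the term for other cells.

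Rab22a, which sorts cargo from early endosomes to recycling tubules, stood at 63.68, 45.87 and 64.81 CPM in AdCL and 34.47, 32.01 and 35 CPM in AdTGFb1 libraries of experiment 1. In experiment 3 it stood at 43.85, 29.15 and 33.17 against 38.11, 22.2 and 24.46 CPM, with overlap. Its log2 fold change was -0.55 ± 0.18 (SE; adjusted p = 0.0447). With 1 library left out, the call was kept without AdCL DC 944 or AdTGFb1 DC 954, and lost without any of the other 10 libraries, with an adjusted p of up to 0.123. It was also lost with library size only (0.167), the sex term (0.199), the term for other cells (0.301) and no term for the experiment (0.0812).

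The Rab5 genes, whose proteins define early endosomes, were not called. On the log2 scale the effect on Rab5a was -0.11 ± 0.20 (SE; adjusted p = 0.757), that on Rab5b -0.03 ± 0.27 (adjusted p = 0.957) and that on Rab5c 0.18 ± 0.13 (adjusted p = 0.401). Their levels overlapped between vectors, as for Rab5c at 91.49 to 150.7 CPM in AdCL and 115.2 to 158.7 CPM in AdTGFb1 libraries.

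Of 4 tested Rab genes of the late endosome and lysosome, Rab7b rose and 3 were not called, while 17.2% of all genes were called. Rab7b, which links endosomes to the Golgi and is known from receptor degradation in phagocytes, stood at 110, 128.2 and 114.1 CPM in AdCL and 157, 157.5 and 143.4 CPM in AdTGFb1 libraries of experiment 1. Levels in experiment 3 were 199.7, 207.6 and 272.4 against 268.2, 303.2 and 251.8 CPM. The vectors were separate in experiment 1 and overlapped in experiment 3, and the experiments were farther apart than the vectors. The log2 fold change for the vector was 0.33 ± 0.11 (SE; adjusted p = 0.0468). It was still called without AdCL DC 8 or 949 or AdTGFb1 DC 956, and not without any of the other 9 libraries, with an adjusted p of up to 0.099. It was also lost with the sex term (0.11), the term for other cells (0.291), no term for the experiment (0.439) and no filter (0.0702).

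Rab7 itself stood at 302.8, 259.3 and 296.2 CPM in AdCL and 258.3, 318.6 and 332.7 CPM in AdTGFb1 libraries of experiment 1, and at 284.8, 262.3 and 287.4 against 261.4, 232.1 and 208.2 CPM in experiment 3. The AdTGFb1 libraries spread to both sides of the AdCL libraries, and the log2 fold change was -0.08 ± 0.11 (SE; adjusted p = 0.672). Rab29 was not called either. Rab9, of transport from late endosomes to the Golgi, had -0.41 ± 0.25 (adjusted p = 0.301). Its levels had a large gap between experiments in AdCL libraries and overlapped between them in AdTGFb1 libraries.

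None of the 6 tested Rab genes of regulated secretion and lysosome-related organelles was called over both experiments by edgeR with TMM or by DESeq2. In edgeR 17.2% of all genes were called. The median log2 fold change of the 6 was 0.44, and Rab32 and Rab3d had an unadjusted p under 0.05, as 29.4% of all genes did. Rab3d was called in edgeR without AdTGFb1 DC 956 (adjusted p = 0.04) and, at the threshold, with library size only (0.05). Rab32, which serves melanosome-like organelles and antimicrobial defence, had 0.42 ± 0.19 (SE; adjusted p = 0.154), at 22.99 to 32.54 CPM in AdCL and 25.55 to 54.11 CPM in AdTGFb1 libraries. Rab27a, which docks secretory vesicles and exosome-bearing endosomes, had 0.24 ± 0.23 (adjusted p = 0.526). Rab38, a partner of Rab32, stayed at or under 3.75 CPM in all libraries, and its log2 fold change of 1.14 ± 1.42 was not resolved. Rab3d, of secretory granules, is taken up with the experiments.

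None of the 13 tested Rab genes of the ER and Golgi was called over both experiments by edgeR or DESeq2, and 0 had an unadjusted p under 0.05 (median log2 fold change -0.06). In edgeR 17.2% of all genes were called, and 29.4% had an unadjusted p under 0.05. Rab1, which brings vesicles from the ER to the Golgi, stood at 133 ± 18.5 CPM in AdCL and 128 ± 25.2 CPM in AdTGFb1 libraries (SD, n = 6 each; log2 fold change -0.07 ± 0.13, adjusted p = 0.762). Rab2a, of the same route, had 0.03 ± 0.14 (adjusted p = 0.915), and Rab6a, of traffic within and out of the Golgi, 0.06 ± 0.16 (adjusted p = 0.855). Rab43, also of the Golgi, stood at 271 ± 39.1 CPM in AdCL and 261 ± 41.0 CPM in AdTGFb1 libraries (SD, n = 6 each; log2 fold change -0.06 ± 0.11, adjusted p = 0.762), though 75.4% of its exon bases are shared with a same-strand gene, Gm45140, in the M21 annotation.

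Close paralogs were set against each other within each library, where depth cancels, for 10 pairs chosen after their values were seen. The ratio of Rab8a to Rab8b in CPM had a median of 0.0733 (0.0498 to 0.0976) in AdCL and 0.136 (0.121 to 0.174) in AdTGFb1 libraries. The ranges did not overlap, and the log2 ratio was 1.02 higher under AdTGFb1, by 1.36 in experiment 1 and 0.67 in experiment 3. Rab8b, whose own fall is given above, is the denominator of this ratio. The ratio of Rab7 to Rab7b had a median of 1.72 in AdCL and 1.31 in AdTGFb1 libraries, with overlapping ranges of 1.06 to 2.75 and 0.765 to 2.32. Ranges overlapped in every other pair too. Several of those pairs changed in opposite directions in the experiments, such as Rab6a to Rab6b, by 0.99 in experiment 1 and -0.62 in experiment 3 on the log2 scale. As the pairs were chosen on their values, these are descriptions without a test.

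Within experiment 1, 11 of the 46 Rab genes were called (3 higher, 8 lower; 23.9%), where 24.7% of all genes were (10.6% higher, 14.1% lower). Rab31, Rab3d and Rab1b were higher, the last only just: its call was lost with RLE factors (adjusted p = 0.05), with no filter (0.0708) and in 8 of 12 fits with 1 library left out. Rab8b, Rab12, Rab20, Rab21, Rab22a, Rab9, Rab10 and Rab11b were lower. The log2 fold change of Rab8b was -1.01 ± 0.14 (edgeR adjusted p = 9.9e-06) and that of Rab12 was -1.57 ± 0.23 (adjusted p = 2e-05). Rab10 stood at 257.5, 197.4 and 233.7 CPM in AdCL and 151.6, 163.3 and 158.4 CPM in AdTGFb1 libraries of this experiment (log2 fold change -0.54 ± 0.16, adjusted p = 0.0179), without overlap. Rab9 stood at 54.38, 67.27 and 70.67 against 33.86, 34.3 and 25.3 CPM (-1.04 ± 0.27, adjusted p = 0.00752), also without overlap. Without AdTGFb1 DC 14 or without DC 54 the number called was 7 (15.2%), and the share of all genes in those fits was not taken. All 3 AdCL libraries here were male and 2 of the 3 AdTGFb1 libraries female, so apart from AdTGFb1 DC 14 the vector and sex cannot be told apart within experiment 1. Summed endothelial markers were 141 to 520 CPM in AdCL and 26.9 to 41.9 CPM in AdTGFb1 libraries of this experiment. Alveolar macrophage markers summed to 78.77 to 175.3 CPM in its AdCL and 1091 to 2288 CPM in its AdTGFb1 libraries. Most of the latter was Chil3, at 977.5 to 2040 CPM, and none of the 7 alveolar macrophage markers was called over both experiments. The part of either list in the calls within experiment 1 was not tested.

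Within experiment 3, where all libraries were female, 2 of 46 were called (4.35%), both lower, and 6.43% of all genes were (1.97% higher, 4.46% lower). Rab8b had -0.68 ± 0.14 on the log2 scale (edgeR adjusted p = 0.00284) and Rab21 -0.69 ± 0.18 (adjusted p = 0.0216). For Rab21 the call was lost without AdCL DC 944 (adjusted p = 0.2), AdTGFb1 DC 955 (0.0851) or AdTGFb1 DC 956 (0.0744), and with library size only (0.0544). Rab31 had 0.54 ± 0.20 (adjusted p = 0.116) and Rab20 -0.57 ± 0.25 (adjusted p = 0.201). At an unadjusted p under 0.05 there were 5 Rab genes (10.9%; 18.4% of all genes), Rab20, Rab21, Rab31, Rab4b and Rab8b. Of 35 Rab genes whose mean reached 5 CPM, 22 had the same sign in both experiments. Summed endothelial markers were 39.04 to 81.82 CPM in AdCL and 71.39 to 158 CPM in AdTGFb1 libraries of experiment 3, with overlap. Alveolar macrophage markers summed to 224.5 to 619.8 CPM in its AdCL and 76 to 131.9 CPM in its AdTGFb1 libraries, opposite in direction to experiment 1. The part of either list in the calls within experiment 3 was not tested.

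**Figure D4:**
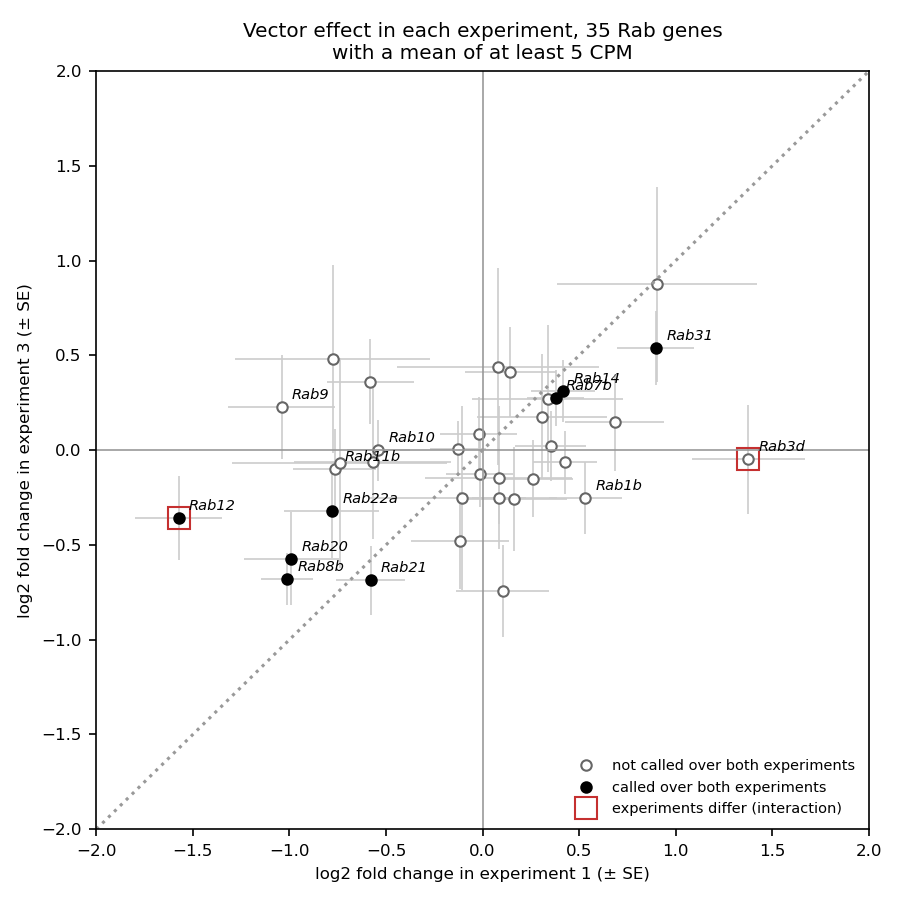
Log2 fold change (AdTGFb1 against AdCL; bars: SE) in experiment 1 (horizontal) and experiment 3 (vertical) for the 35 Rab genes whose mean reached 5 CPM, with a dotted line where both are equal. Rab8b and Rab21 lie low on both axes, and Rab12 (-1.57 and -0.36) and Rab3d (1.38 and -0.05) lie off the dotted line.

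The vector's effect differed between experiments for 2 of 46 Rab genes (4.35%), Rab12 upward and Rab3d downward, and for 6.02% of all genes (3.43% upward, 2.59% downward). Rab12 fell in experiment 1, and its effect in experiment 3 was 1.21 ± 0.31 higher on the log2 scale (SE; edgeR adjusted p = 0.0219). Rab3d, of secretory granules, stood at 12.92, 14.63 and 24.45 CPM in AdCL and 40.45, 51.27 and 43.45 CPM in AdTGFb1 libraries of experiment 1. In experiment 3 it stood at 22.21, 18.56 and 23.72 against 25.82, 20.76 and 15.82 CPM. It was higher without overlap in experiment 1 (log2 fold change 1.38 ± 0.29, adjusted p = 0.00126), had -0.05 ± 0.29 in experiment 3, and the difference was -1.42 ± 0.41 (adjusted p = 0.0395). Both differences missed the threshold without AdCL DC 7, 8 or 949 or AdTGFb1 DC 52 or 955, at adjusted p of 0.0551 to 0.067 for Rab12 and 0.0649 to 0.11 for Rab3d. That of Rab3d also missed it without AdTGFb1 DC 54 (adjusted p = 0.0746), AdCL DC 943 (0.067) or AdTGFb1 DC 956 (0.102).

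Rab8b did not pass this test (adjusted p = 0.341), nor did Rab21 (adjusted p = 0.868). For Rab9 and Rab5a the 3 AdTGFb1 libraries lay below the 3 AdCL libraries in experiment 1 and overlapped with them in experiment 3, with adjusted p of 0.0533 and 0.0802 for the difference. Rab1b had 0.53 ± 0.19 in experiment 1 (adjusted p = 0.0449) and -0.25 ± 0.19 in experiment 3, and the difference had an adjusted p of 0.0853. Its call in experiment 1 was lost without AdCL DC 7 or 9, AdTGFb1 DC 14, 52 or 54, or AdTGFb1 DC 954, 955 or 956, at adjusted p of 0.0511 to 0.128.

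Between the experiments, over both vectors, 3 of 46 Rab genes differed (6.52%), 1 higher and 2 lower in experiment 3, and 6.43% of all genes did (3.57% higher, 2.86% lower). Rab7b was higher in experiment 3 by 0.90 ± 0.11 on the log2 scale (SE; adjusted p = 0.000257). Rab5a was lower there (-0.80 ± 0.20, adjusted p = 0.021), and so was Rab9 with -0.94 ± 0.25 (adjusted p = 0.032). Rab5a stood at 103.4, 82.1 and 99.4 CPM in AdCL libraries of experiment 1 and at 27.41, 49.25 and 40.81 CPM in those of experiment 3. Its AdTGFb1 libraries overlapped between experiments, at 72.8, 66.73 and 50.74 against 43.13, 64.2 and 43.91 CPM. Rab9 was likewise separate in AdCL libraries (54.38, 67.27 and 70.67 against 20.68, 25.73 and 18.23 CPM). In AdTGFb1 libraries it overlapped (33.86, 34.3 and 25.3 against 37.48, 22.2 and 16.01 CPM). The 3 AdCL libraries of experiment 1 were male and those of experiment 3 female, and with a term for sex only Rab7b was called. The call of Rab5a was lost without AdCL DC 949 (adjusted p = 0.0596). That of Rab9 was lost without any 1 of the 6 AdCL libraries or without AdTGFb1 DC 956, at adjusted p of 0.0543 to 0.0961.

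Of 143 genes listed as carriers, exchange factors, GTPase-activating proteins and effectors of Rab proteins, 137 were tested. Over both experiments 38 were called (27.7%, against 17.2% of all genes), 19 in each direction, with a median log2 fold change of 0.08. Within experiment 1 the share was 27% against 24.7% of all genes, and within experiment 3 it was 6.57% against 6.43%. The list was chosen with earlier results of these data known, so the larger share over both experiments is a description only. Over both experiments, of 38 exchange factors 5 were higher and 7 lower, of 35 GTPase-activating proteins 4 and 5, and of 56 effectors 10 and 6. With a term for sex 24 were called (17.5%; 11.4% of all genes), and with the term for other cells 7 (5.11%; 4.21% of all genes).

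Rab11fip1, an effector that couples Rab11 to recycling endosomes, stood at 1145, 1104 and 1019 CPM in AdCL and 467.6, 479 and 503.8 CPM in AdTGFb1 libraries of experiment 1, and at 602.4, 728.5 and 571 against 335.8, 328.8 and 306.1 CPM in experiment 3. All AdTGFb1 libraries were lower, by -1.07 ± 0.10 on the log2 scale (SE; adjusted p = 1.6e-06). Rab11fip5, of the same effector family, moved the other way without overlap, from 43.0 ± 14.7 to 84.2 ± 8.9 CPM (SD, n = 6 each; 1.03 ± 0.19, adjusted p = 0.000887). Their partners Rab11a and Rab11b were not called over both experiments.

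Dennd4a, an exchange factor for Rab10, stood at 1723, 1277 and 1154 CPM in AdCL and 623.1, 506.3 and 435.6 CPM in AdTGFb1 libraries of experiment 1, and at 1464, 1701 and 1544 against 748.1, 798.3 and 901.6 CPM in experiment 3. It was lower without overlap (-1.18 ± 0.13, adjusted p = 7.9e-06). Tbc1d4, a GTPase-activating protein for Rab10 and Rab8a that is known from glucose transporter traffic, fell from 610 ± 156 to 248 ± 63.9 CPM (-1.27 ± 0.17, adjusted p = 4.3e-05). Rab10 itself was not called over both experiments. Rab3il1, an exchange factor for Rab8 and Rab3 proteins, rose from 73.3 ± 22.2 to 139 ± 17.3 CPM (0.96 ± 0.15, adjusted p = 0.000149), with all 6 AdTGFb1 libraries above all AdCL libraries.

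Micall1 (an effector of recycling tubules, -0.95), Appl1 (an effector of early Rab5 endosomes, -0.91) and Dennd4b (-0.75) also fell. These 3 and the genes Rab11fip1, Dennd4a, Tbc1d4 and Rab3il1 kept their call in every alternative run. Among the next, Rilpl2, Dennd5a, Madd and Rabgap1l were lower and Tbc1d10b, Plekhm1 (a late endosome adaptor) and Dennd1b higher. Fyco1, the adaptor between Rab7 vesicles and kinesin, fell by 1.67 in experiment 1 and had -0.44 in experiment 3. That difference passed its test (adjusted p = 0.00724), 1 of 5 machinery genes (3.65%; 6.02% of all genes) to do so.

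**Figure D5:**
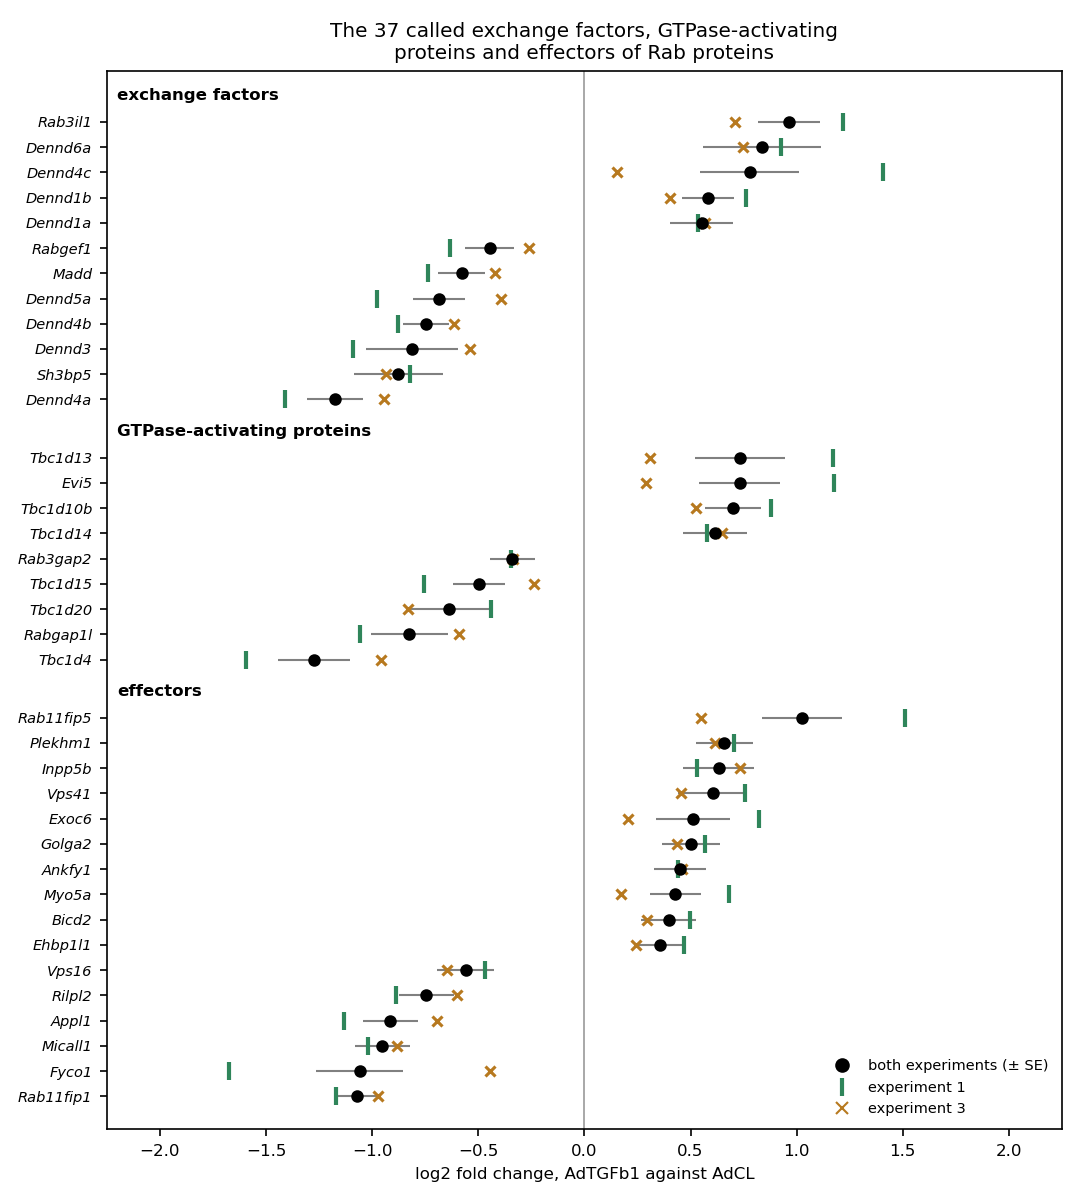
Log2 fold change (AdTGFb1 against AdCL) of the 37 called exchange factors, GTPase-activating proteins and effectors of Rab proteins, with points for both experiments together (bar: SE), ticks for experiment 1 and crosses for experiment 3. The 18 lower genes are led by Tbc1d4 (-1.27), Dennd4a (-1.18) and Rab11fip1 (-1.07), and Rab11fip5 (1.03) and Rab3il1 (0.96) are among the 19 higher.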

How the data were processed

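RNA of CD11b dendritic cells was sequenced as 12 libraries, with poly(A) selection, a directional kit and 10 PCR cycles, per the labels' protocols. Tools in the submitters' processing notes, listed without roles, were STAR 2.5.0c, HTSeq, DESeq2, bcl2fastq, FastQC 0.11.4, cutadapt 1.9.1 and Trim Galore 0.4.1; the build was mm9. The deposited values are raw counts per gene symbol. For annotation and strand setting, nothing was given in the sources used here.

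Counts were tested with edgeR 4.0.16 in R 4.3.3 (TMM, filterByExpr on 4 groups, quasi-likelihood F test, two-sided, Benjamini-Hochberg over 13221 genes, called at adjusted p under 0.05). Vector and experiment were additive terms. A model of 4 groups gave effects within each experiment and their difference (experiment 3 minus experiment 1). SE is the effect over the square root of F. The script was tested on simulated data, with changes put into genes of all levels for the comparison over both experiments. It called 5.33% of changes of 0.5 on the log2 scale, 40.7% of changes of 1 and 71.7% of changes of 2. A gene that was not called may thus still have changed. Exon lengths and overlaps came from GENCODE M21, of another build than the counts. Promoters came from RefSeq. Other settings were RLE factors, library size only, no filter, DESeq2 1.42.0, other terms, single experiments and leaving out each library.

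The Rab genes, roles, machinery and marker lists were chosen with earlier results of these data known. The rule for names allowed every Rab gene, up to 16 called machinery genes of smallest adjusted p with a mean of at least 1 CPM, and up to 4 markers per list. Beyond that rule, every called CD11b dendritic cell marker is named. No result for single carrier genes is reported here.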

Additional observations from a re-analysis of the deposited data

Results flagged for a closer look

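For 2 Rab genes the vector's effect differed between the experiments by the test of the difference itself. Rab12 differed by 1.21 on the log2 scale (experiment 3 minus experiment 1; edgeR adjusted p = 0.0219): it fell by 1.57 in experiment 1 and had -0.36 in experiment 3. Rab3d differed by -1.42 (adjusted p = 0.0395): it rose by 1.38 in experiment 1 and had -0.05 in experiment 3. Each experiment also had its own makeup of sex and of markers of other cells, and their part was not tested.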

How the results depend on the processing

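Over both experiments the 8 Rab calls became 5 without a term for the experiment, 4 with sex as a term, 1 with other-cell markers as a term, 13 of 41 in experiment 1 alone, 1 of 45 in experiment 3 alone and 5 to 8 with 1 library left out. Of all genes 13.1% were called without a term for the experiment, 26.4% in experiment 1 alone, 6.13% in experiment 3 alone and 12.3% to 17.9% with 1 library left out. RLE factors gave 8, no filter 6, DESeq2 9 and library size only 9 (5 higher, 4 lower), the last with the median of all genes shifted to 0.165. The share of all genes called was 17.3% (RLE factors), 14.4% (no filter), 21.5% (DESeq2) and 18.9% (library size only). The 2271 calls over all genes became 1501 (sex), 556 (other cells) and 748 (experiment 3 alone), and 1693 to 2488 with 1 library left out. With library size only they were 2500, of which 63.3% were higher, against 39.5% with TMM. The 38 machinery calls became 24, 7 and 8 under those same 3 settings, and 30 to 38 with 1 library left out. The 11 calls within experiment 1 ranged from 7 to 15 with 1 library left out, and were 12 (8 higher, 4 lower) with library size only. The 2 within experiment 3 ranged from 1 to 3 and were 1 with library size only. The 2 differences between experiments ranged from 0 to 4 and were 4 with no filter. The 3 calls of experiment 3 against experiment 1 ranged from 1 to 5, and were 5 with library size only, 6 with DESeq2 and 1 with the sex term. Beyond the fewer libraries where some were left out, the cause was not tested. None of the 46 tested Rab genes and 16 named machinery genes had a called direction reversed under these alternatives. Of 1296 pairs of a gene and a setting, 71 lost a call, 15 gained one, and 68 had another sign without a call in either. No paired analysis was possible because each library has a DC number of its own. At 3 counts, or 0.181 to 0.31 CPM, low Rab genes such as Rab38 are not resolved.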
